A study of Mus musculus with 12 samples.

Results

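The circadian clock genes Per1, Per2, Per3, Cry1, Cry2, Nr1d1, Nr1d2, Dbp, Tef and Arntl were followed in mouse renal cortex. The members were all probe sets whose annotated symbol is one of these 10 names, which gave 22 of the 45101 probe sets on the array and 10 of the 18193 genes that the annotation names. A probe set was tested when it lay above the median of its own array in at least 3 of the 12 arrays, and 21 of the 22 passed, the exception being 1 of the 6 probe sets of Per3. Where a gene had several probe sets, the brightest stood for it. The arrays, Affymetrix Mouse Genome 430 2.0, were hybridised with RNA from ICGN mice, which the labels describe as having nephrotic syndrome, and from ICR mice, which they describe as normal. ICGN was derived from ICR stock and is known for a hereditary glomerular disease with a mutation of Tns2. Both strains were sampled at 4 and at 8 weeks of age, with 3 arrays for each strain and age. The labels name no treatment, and they mention neither littermates nor the sex of the mice. They number the replicates without saying that each came from a separate mouse, so a p-value here reflects only how these samples spread, which may be technical.

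The sources used here do not give the hour at which the tissue was collected. For genes whose level follows the time of day, a difference between strains or ages and a difference in the hour of collection therefore cannot be told apart. In bulk tissue, fewer cells of a type and less RNA per cell cannot be told apart either.

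As background, the mammalian clock is a transcription loop. The protein of Arntl, called BMAL1, pairs with CLOCK and activates genes through E-box sequences, among them the Per, Cry, Nr1d, Dbp and Tef genes. PER and CRY proteins enter the nucleus and inhibit that pair. The Nr1d1 and Nr1d2 products, REV-ERB alpha and beta, repress Arntl through ROR elements, so Arntl and the REV-ERB targets peak roughly opposite to Dbp in most tissues. DBP, TEF and HLF are related PAR bZIP transcription factors that carry the rhythm to output genes through D-box sequences. Kidney cells hold such a clock, and transport genes of the tubule are among its known outputs. Per1 is also known to respond directly to glucocorticoids and to acute signals.

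Promoter windows are shown for members in which a sequence element named for the clock loop was found. Windows of 250 bases before to 50 bases after a transcription start, from RefSeq on build GRCm38.p6, were given for 9 of the 10 members, in 12 windows. Both strands were searched for the E-box CACGTG, the E'-box CACGTT, the D-box TTANGTAA and the ROR element core TAGGTCA. Of all 32851 windows in the table, 7.15% held the E-box, 4.68% the E'-box, 2.32% the D-box and 2.61% the ROR core. The E-box was found in windows of Per1, Cry1 and Tef and the E'-box in those of Cry1, Cry2 and Nr1d1. The D-box was found in the window of Per3, with 2 copies, and the ROR core in a window of Arntl. The windows of Dbp and Nr1d2 held none of these letters. In the sequences printed here, 5′ to 3′ on the gene's strand, capitals mark the matches, and the AACGTG of Cry1 is the E'-box read on the opposite strand. The Tef stretch is chr15:81802423-81802672 on the plus strand, the Cry1 stretch chr10:85185055-85185304 on the minus strand, the Per3 stretch chr4:151044666-151044915 on the minus strand and the Arntl stretch chr7:113207526-113207555 on the plus strand.
Tef: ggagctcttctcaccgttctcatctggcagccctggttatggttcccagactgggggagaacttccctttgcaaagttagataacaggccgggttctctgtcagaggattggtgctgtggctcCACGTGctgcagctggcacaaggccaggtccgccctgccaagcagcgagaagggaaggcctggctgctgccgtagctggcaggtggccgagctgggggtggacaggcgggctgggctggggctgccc
Cry1: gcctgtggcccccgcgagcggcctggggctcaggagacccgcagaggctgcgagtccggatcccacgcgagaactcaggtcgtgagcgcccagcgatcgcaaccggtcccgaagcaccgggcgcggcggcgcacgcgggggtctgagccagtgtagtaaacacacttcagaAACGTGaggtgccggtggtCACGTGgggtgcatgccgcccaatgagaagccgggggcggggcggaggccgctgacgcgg
Per3: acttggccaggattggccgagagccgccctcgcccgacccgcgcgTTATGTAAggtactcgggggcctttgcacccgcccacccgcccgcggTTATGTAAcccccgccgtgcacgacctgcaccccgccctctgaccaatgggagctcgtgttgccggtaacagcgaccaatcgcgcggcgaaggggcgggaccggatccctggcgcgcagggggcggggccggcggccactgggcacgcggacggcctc
Arntl: agggaaggcagaaagTAGGTCAgggacgga
A match is a description of the letters in the window and not a measured binding site.

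The signals are the authors' deposited probe set intensities, brought here to a common array median of 40.4, since the deposited table put each age on a scale of its own. Tests ran on log2(signal + 11.1) with limma over 12385 genes, and a gene was called at a Benjamini-Hochberg adjusted p of 0.05 or less. Log2 fold changes are printed ± the fit's standard error and after subtraction of the median gene's value in that comparison, while the test was on the value before that subtraction. That median was -0.02 for ICGN against ICR in the 4-week arrays, -0.18 in the 8-week arrays and -0.17 for the interaction, and 0.09 and -0.08 for the age change in ICR and ICGN. Across genes, Pearson's r of log2 values was 0.978 to 0.989 for arrays of the same group and 0.937 to 0.975 for arrays of different groups. Proximal tubule markers summed to a signal between 46783 and 92740 on every array. The 7 adrenal markers summed to between 177 and 292, and 3 of them, Cyp11b1, Cyp11b2 and Th, lay below the array median on all 12 arrays while the other 4 passed the filter. The balance of calls over all genes at 8 weeks moved with the scaling. It was 1052 higher and 3225 lower as tested here, 1701 and 1664 with quantile normalization, 1497 and 2641 with arrays centred on the tested probe sets, and 2232 and 1488 with the authors' own scaling. For the interaction it was 274 higher and 704 lower against 483 and 412 with quantile normalization and 497 and 749 with centring on the tested probe sets. For the age change in ICR it was 2228 higher and 1328 lower against 1716 and 2080 with quantile normalization.

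Of the 10 members, 1 was called between the strains at 4 weeks and 3 at 8 weeks. At 4 weeks Cry1, a core repressor of the loop, was higher in ICGN and no other member was called. At 8 weeks Tef, Per2 and Dbp were lower in ICGN and no member was called higher. Calls in the whole table at 4 weeks were 1.60% of genes higher and 1.39% lower. At 8 weeks they were 8.49% higher and 26.0% lower, so that 3 of 10 members lower is close to the share of all genes. The median member stood at 0.05 at 4 weeks and -0.06 at 8 weeks relative to the median gene. Tef was the only member called for a change of the strain difference with age (7.90% of all genes were called for that change in either direction).

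**Figure D1:**
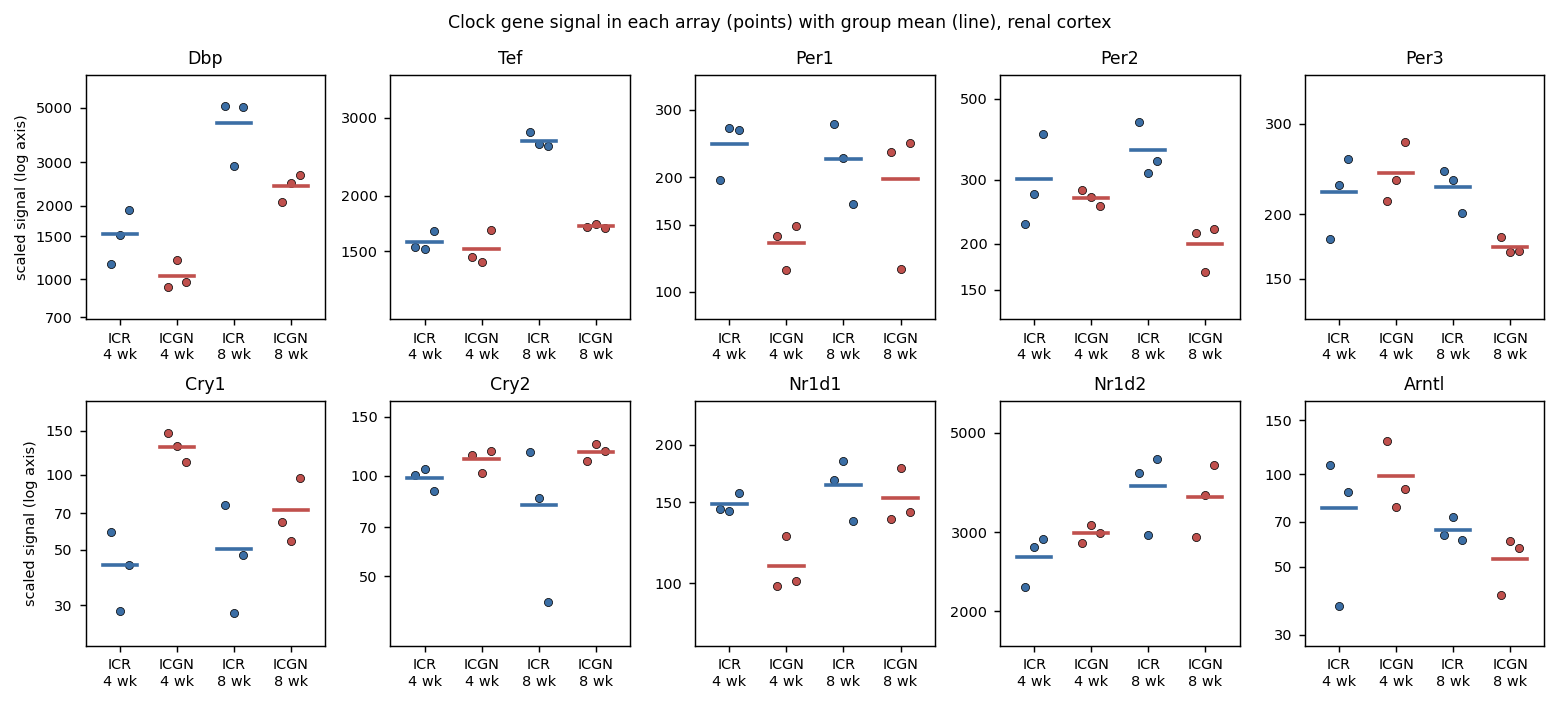
Scaled signal of the 10 clock genes on a log axis, 1 panel a gene, with each array as a point and the mean of its 3 arrays as a line, for ICR in blue and ICGN in red at 4 and 8 weeks. Dbp in ICR at 8 weeks lies above every other group, Tef in ICR at 8 weeks stands apart from the other 9 arrays, and Cry1 is highest in the 3 ICGN arrays at 4 weeks.

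Dbp, the output factor whose transcript has one of the widest daily swings known in mouse tissues, had signals of 1158, 1519 and 1926 in ICR and 927, 1199 and 973 in ICGN at 4 weeks. The 8-week arrays had 5071, 2903 and 5065 in ICR and 2068, 2481 and 2669 in ICGN. The ranges of the strains overlapped at 4 weeks and lay apart at 8 weeks, where the highest ICGN array was below the lowest ICR array. The strain difference was -0.53 ± 0.21 at 4 weeks (limma adjusted p = 0.223) and -0.63 ± 0.21 at 8 weeks (limma adjusted p = 0.00883), 1.55-fold lower. The difference between those differences was -0.10 ± 0.30 (limma adjusted p = 0.598), with a 95% interval from -0.74 to 0.54. The call at 8 weeks was lost with quantile normalization, where the difference was -0.41 (limma adjusted p = 0.104). Across the other settings tried the adjusted p went as low as 0.000934.

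A further probe set of Dbp, 1418174_at, gave tighter arrays. It read 689, 939 and 1033 in ICR and 539.9, 552 and 627 in ICGN at 4 weeks. At 8 weeks it read 2204, 1994 and 2383 in ICR and 1192, 1192 and 1313 in ICGN. Here the strains lay apart at both ages. Tested over all 21826 named probe sets, it was called lower in ICGN both in the 4-week arrays (-0.58 ± 0.14, limma adjusted p = 0.0361) and in the 8-week arrays (-0.67 ± 0.14, limma adjusted p = 0.00077). The second ICR array at 8 weeks, low in the brighter probe set with 2903, was nearer to its group mean in this one, at 1994 against 2194.

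Tef, which encodes a PAR bZIP factor of the same family, had signals of 1529, 1516 and 1669 in ICR and 1452, 1419.6 and 1677 in ICGN at 4 weeks. At 8 weeks ICR arrays read 2782, 2623 and 2589 and ICGN arrays 1702.5, 1725 and 1689.7. The strains overlapped at 4 weeks, and at 8 weeks the 3 ICR arrays stood above all 9 others. The strain difference was -0.04 ± 0.11 at 4 weeks (limma adjusted p = 0.887) and -0.46 ± 0.11 at 8 weeks (limma adjusted p = 0.000399). The change of the strain difference with age was -0.41 ± 0.15 (limma adjusted p = 0.0279). This change lost its call under 6 of 23 other settings. Among them were quantile normalization and the median of the probe sets. The rest left out the first or the second ICR array or the third ICGN array at 4 weeks, or the second ICGN array at 8 weeks. With the most variable probe set the change was called in the opposite direction (1.39, limma adjusted p = 0.032).

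The probe sets of Tef did not agree. Probe set 1450184_s_at was also lower in 8-week ICGN, with 140, 168 and 208 against 251, 249 and 256 in ICR (-0.38 ± 0.15, limma adjusted p = 0.015). Probe set 1438033_at went the other way, with 242, 217 and 153 in ICGN against 104, 118 and 82.2 in ICR at 8 weeks (1.08 ± 0.22, limma adjusted p = 0.00534). At 4 weeks it lay between 26.6 and 54.6 on all 6 arrays, with the strains overlapping. The lower Tef in ICGN than in ICR at 8 weeks is therefore that of the 2 brighter of its 3 tested probe sets. With the median of the probe sets standing for the gene, the difference at 8 weeks was -0.01 (limma adjusted p = 0.309). With the most variable probe set it was 1.08, in the opposite direction.

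**Figure D2:**
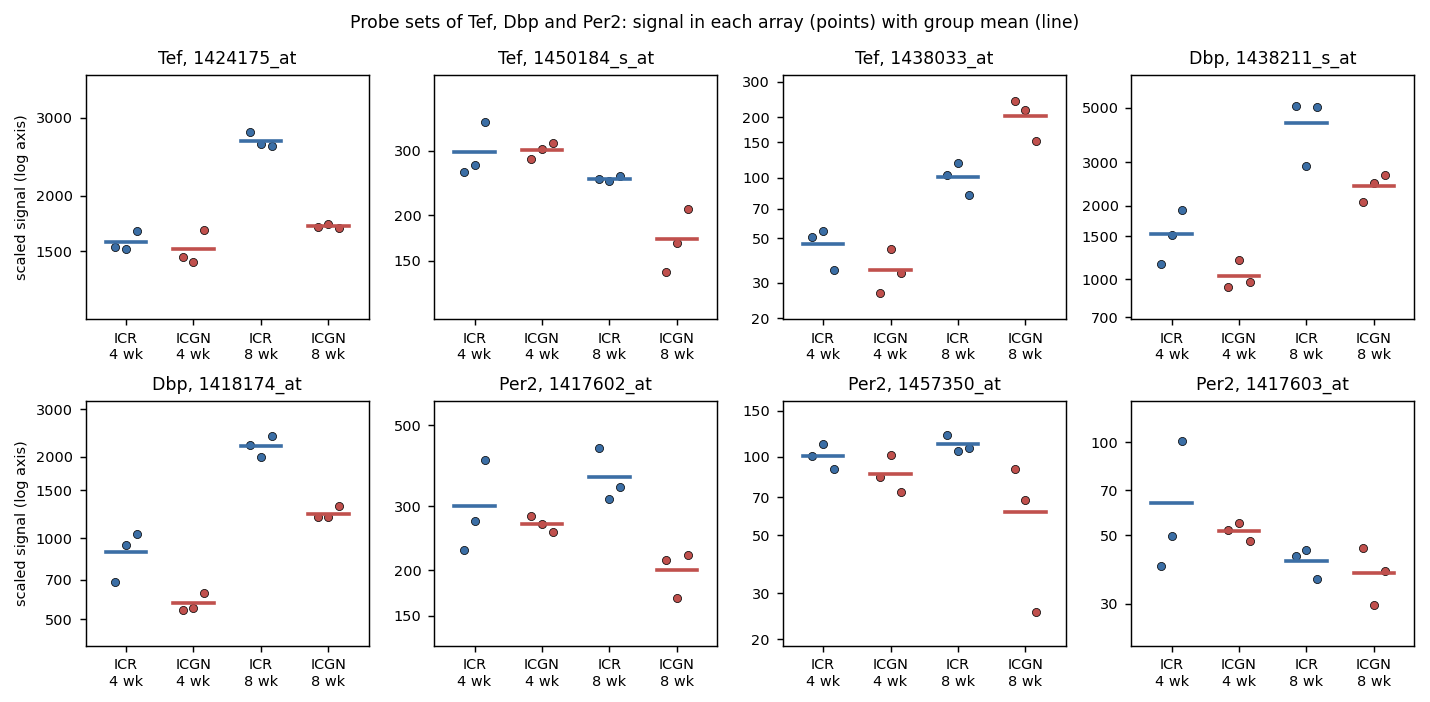
Scaled signal of each probe set of Tef, Dbp and Per2 on a log axis, 1 panel a probe set, with each array as a point and the group mean as a line. Probe set 1438033_at of Tef is highest in ICGN at 8 weeks, while the brightest probe set of Tef, 1424175_at, is highest in ICR at 8 weeks, and both probe sets of Dbp are higher at 8 than at 4 weeks in each strain.

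Per1, the period gene that also answers acute signals, had signals of 197, 269 and 265 in ICR and 139.8, 114 and 149 in ICGN at 4 weeks. Its 8-week signals were 275, 224 and 170.4 in ICR and 232, 115 and 245 in ICGN. The strains lay apart at 4 weeks, with ICGN lower, and overlapped at 8 weeks. The strain difference at 4 weeks was -0.79 ± 0.24 and did not pass (limma adjusted p = 0.0871). It passed only where the 6 arrays of that age were fitted alone (limma adjusted p = 0.0175). At 8 weeks the difference was -0.03 ± 0.24 (limma adjusted p = 0.513), with a 95% interval from -0.53 to 0.48.

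Per2, the period gene whose product is a central brake of the loop, had signals of 227, 273 and 401 in ICR and 281, 269 and 254 in ICGN at 4 weeks. By 8 weeks the signals were 432, 314 and 337 in ICR and 214, 168 and 220.2 in ICGN. The ICGN arrays lay within the ICR range at 4 weeks and below all ICR arrays at 8 weeks. Per2 was lower in the 8-week ICGN arrays (-0.63 ± 0.18, 1.54-fold, limma adjusted p = 0.00323), and this call held in all 18 other settings, with adjusted p between 0.00257 and 0.0308. At 4 weeks the difference was -0.10 ± 0.18 (limma adjusted p = 0.831). Of its other probe sets, 1457350_at was lower at 8 weeks (-0.72 ± 0.27, limma adjusted p = 0.0256), while 1417603_at stood at 0.05 ± 0.26 (limma adjusted p = 0.784) with signals between 29.7 and 45.5 on the 6 arrays of that age.

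Per3, the period gene that the loop can run without, had signals of 179, 228 and 256 in ICR and 212, 234 and 277 in ICGN at 4 weeks. The older mice gave 242, 234 and 201 in ICR and 180.5, 169 and 169.9 in ICGN. The strains overlapped at 4 weeks, and at 8 weeks the ICGN arrays lay below the ICR arrays without passing the test (-0.18 ± 0.14, limma adjusted p = 0.0633). A dim probe set, 1421086_at, was called lower in the 8-week ICGN arrays (-0.42 ± 0.21, limma adjusted p = 0.0489), with 22.4, 23.9 and 31.3 against 47.6, 36.4 and 48.6. The other tested probe sets of Per3 were not called in a strain comparison.

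Cry1 encodes a cryptochrome, the strongest repressor of the BMAL1 and CLOCK pair. Its signals were 58.7, 28.4 and 43.3 in ICR and 146, 129.9 and 112 in ICGN at 4 weeks. At 8 weeks they were 75.4, 27.9 and 47.7 in ICR and 64.9, 54.4 and 96.7 in ICGN. The strains lay well apart at 4 weeks and overlapped at 8 weeks. Cry1 was 2.67-fold higher in ICGN at 4 weeks (1.42 ± 0.28, limma adjusted p = 0.0119). The call depended on single arrays. It was lost without the first ICGN array (limma adjusted p = 0.0629), without the second ICGN array (limma adjusted p = 0.0537) and without the second ICR array (limma adjusted p = 0.0618). Calls over all genes also dropped in these fits, from 198 higher and 172 lower to 102 and 91, 93 and 80, and 112 and 121. The log2 fold change of Cry1 stayed between 1.01 and 1.65 over the 17 other settings. At 8 weeks the difference was 0.66 ± 0.28, or 0.48 before subtraction of the median gene (limma adjusted p = 0.202). The difference between the ages, -0.75 ± 0.40, was not called (limma adjusted p = 0.159). Cry1 had a single probe set, and it lay above the array median on 10 of 12 arrays.

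Cry2, the other cryptochrome, had signals of 100.5, 105 and 89.9 in ICR and 115, 102 and 119 in ICGN at 4 weeks. The 8-week signals were 118, 85.8 and 41.9 in ICR and 111, 124 and 118 in ICGN. Its strains overlapped at both ages, since the third ICR array at 8 weeks was low and the first was level with ICGN. The difference at 8 weeks was 0.74 ± 0.23 and did not pass (limma adjusted p = 0.0749). Without the first ICR array at 8 weeks both cryptochromes were called higher in ICGN at that age, Cry1 at 0.96 (limma adjusted p = 0.0474) and Cry2 at 1.04 (limma adjusted p = 0.00794). With the authors' own scaling Cry2 was called at 8 weeks as well (limma adjusted p = 0.0352).

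Nr1d1, whose product REV-ERB alpha represses Arntl, had signals of 145, 144 and 157 in ICR and 98.6, 127 and 101 in ICGN at 4 weeks. In the older mice they were 168, 185 and 137 in ICR and 138, 178 and 143 in ICGN. The strains lay apart at 4 weeks, with ICGN lower, and overlapped at 8 weeks. Neither difference passed, at -0.40 ± 0.15 (limma adjusted p = 0.166) and 0.10 ± 0.15 (limma adjusted p = 0.683).

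Nr1d2, which encodes REV-ERB beta, had signals of 2265, 2778 and 2895 in ICR and 2843, 3116 and 2995 in ICGN at 4 weeks. At 8 weeks it had 4071, 2966 and 4359 in ICR and 2922, 3623 and 4245 in ICGN. The strains overlapped at both ages. The differences were 0.20 ± 0.16 (limma adjusted p = 0.689) and 0.11 ± 0.16 (limma adjusted p = 0.743), the latter with a 95% interval from -0.24 to 0.45. With quantile normalization Nr1d2 was called higher in ICGN at 8 weeks (0.35, limma adjusted p = 0.0426).

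Arntl, the activator of the loop, had signals of 107, 37.3 and 87.9 in ICR and 129, 78.5 and 89.3 in ICGN at 4 weeks. The 8-week arrays read 63.3, 72.6 and 60.9 in ICR and 40.5, 60.7 and 57.6 in ICGN. The strains overlapped at 4 weeks, where the second ICR array was low, and at 8 weeks the highest ICGN array sat just below the lowest ICR array. The differences were 0.40 ± 0.28 (limma adjusted p = 0.591) and -0.09 ± 0.28 (limma adjusted p = 0.47). The 95% intervals, from -0.19 to 0.99 and from -0.68 to 0.50, show how little 3 arrays a group say about a gene this dim. Its second probe set lay above the array median on 7 of 12 arrays and was not called.

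**Figure D3:**
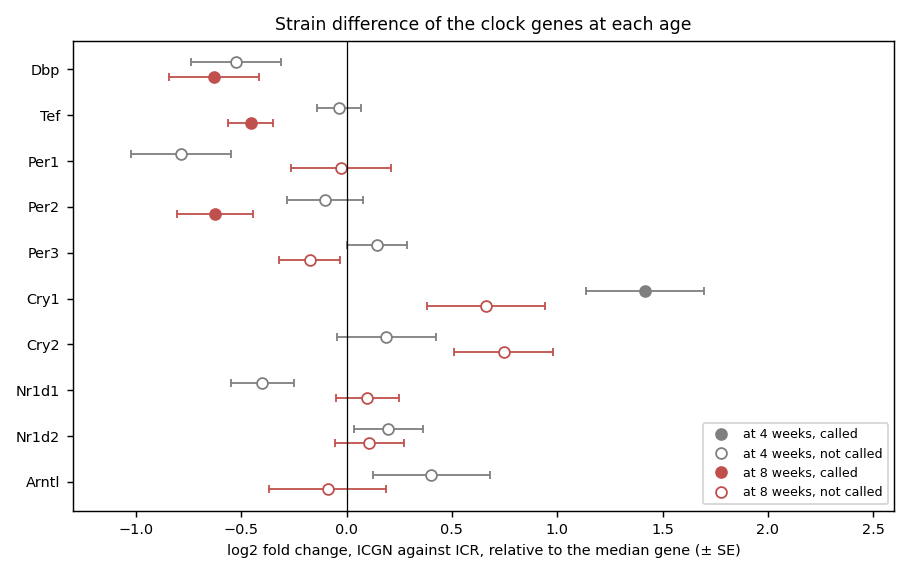
Log2 fold change of ICGN against ICR for each clock gene relative to the comparison's median gene, with bars of 1 standard error, in grey at 4 weeks and red at 8 weeks. Filled points passed at a limma adjusted p of 0.05 or less, and these are Cry1 at 4 weeks at 1.42 and Dbp, Tef and Per2 at 8 weeks between -0.63 and -0.46.

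At the level of single probe sets 2 of 21 were called between the strains at 4 weeks (2.29% of all 21826 named probe sets tested), Cry1 higher and 1418174_at of Dbp lower. At 8 weeks 8 of 21 were called, 7 lower and 1 higher, against 28.0% of all probe sets. The 7 lower ones belong to 4 genes, Dbp, Tef, Per2 and Per3, and probe sets of a gene share its transcript.

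Between 4 and 8 weeks Dbp rose in both strains, and Tef and Nr1d2 rose in ICR, each read from its brightest probe set. In ICR Dbp rose 2.63-fold (1.39 ± 0.21, limma adjusted p = 0.000143), Tef 1.59-fold (0.67 ± 0.11, limma adjusted p = 0.000103) and Nr1d2 1.34-fold (0.42 ± 0.16, limma adjusted p = 0.0283). These are 3 of 10 members higher and 0 lower, beside 18.0% of all genes higher and 10.7% lower. In ICGN Dbp rose 2.45-fold (1.29 ± 0.21, limma adjusted p = 0.00128) and Nr1d1 1.44-fold (0.53 ± 0.15, limma adjusted p = 0.0455), while Per3 fell 1.29-fold (-0.37 ± 0.14, limma adjusted p = 0.0401). These are 2 of 10 higher and 1 lower, beside 6.35% of all genes higher and 12.8% lower. The deposited arrays of the ages differ in scale, and whether they were also hybridised in separate batches is not stated, so a batch could not be told apart from age. The 3' to 5' signal ratio of the Actb control probe sets, a sign of RNA quality, ran from 1.34 to 1.49 in the 4-week arrays and from 1.57 to 2.10 in the 8-week arrays. The same ratio of the Gapdh control probe sets ran from 0.79 to 0.82 in the 4-week arrays and from 0.78 to 0.81 in the 8-week arrays. The part of RNA quality in these changes was not tested.

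The rise of Dbp with age did not hang on the settings tried. It was called in each of the 17 other settings in ICR, from 1.21 to 1.64, and in each of the 17 in ICGN, from 1.22 to 1.41. In neither strain did any 8-week array overlap the 4-week arrays. The probe set 1418174_at rose likewise, by 1.23 ± 0.14 in ICR (limma adjusted p = 1.19e-05) and 1.15 ± 0.14 in ICGN (limma adjusted p = 0.000123). The difference of the age changes between the strains is the interaction already given for Dbp.

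The other age calls were less firm. Nr1d2 in ICR lost its call in 6 of 17 other settings. Among them were leaving out the first or the second ICR array at 4 weeks or the first or the third at 8 weeks. With the median of its probe sets Nr1d2 stood at 0.26 in ICR (limma adjusted p = 0.142). Its dimmer probe set, 1416959_at, stood at 0.06 ± 0.18 in ICR (limma adjusted p = 0.609) and -0.12 ± 0.18 in ICGN (limma adjusted p = 0.524). The rise in ICR is therefore that of the brighter probe set. Nr1d1 in ICGN lost its call in 6 of 16 settings, among them leaving out the first or the third ICGN array at 4 weeks or the second or the third at 8 weeks. Nr1d2 in ICGN, at 0.33 ± 0.16 (limma adjusted p = 0.295), was called higher at 8 weeks with quantile normalization (0.38, limma adjusted p = 0.0391). Per3 in ICGN lost it in 11 of 17, including every setting that left out the second or the third array at 4 weeks or any array at 8 weeks, and it stood at 0.22 with the most variable probe set. Tef in ICR kept its call except with the median of its probe sets, where it stood at -0.29 (limma adjusted p = 0.201).

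Tef probe sets also split with age. In ICGN 1438033_at rose from 26.6, 44.5 and 33.6 to 242, 217 and 153, a log2 change of 2.28 ± 0.22 (limma adjusted p = 1.02e-05), while 1450184_s_at fell by 0.73 on the log2 scale (limma adjusted p = 0.00216). The brightest probe set stood at 0.25 ± 0.11 in ICGN for the gene (limma adjusted p = 0.27). Of the dimmer members, Cry1 (-0.70 ± 0.28, limma adjusted p = 0.0624) and Arntl (-0.69 ± 0.28, limma adjusted p = 0.064) stood lower at 8 weeks in ICGN without passing. In both, the 8-week ICGN arrays lay below the 4-week ICGN arrays. Fitted on the ICGN arrays alone, both were called (limma adjusted p = 0.00713 and 0.0137). The age and strain comparisons share arrays, so their values are not independent of each other.

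The rest of the clock pathway was read from 3 lists of 21 genes, of which the annotation named 19 and 16 were tested. At 4 weeks limma called 0 of the 16 between the strains, and 2 had an unadjusted p under 0.05, beside 15.1% of all genes. Csnk1e, a kinase of PER proteins, stood at 0.46 ± 0.12 (limma adjusted p = 0.0604) and was called with quantile normalization, with centring on the tested probe sets and with the authors' own scaling (limma adjusted p between 0.0364 and 0.0454). Ciart, a repressor of the loop, stood at -0.73 ± 0.25 (limma adjusted p = 0.143) and was called on the 4-week arrays alone (limma adjusted p = 0.032). At 8 weeks 1 was higher in ICGN and 7 were lower, beside 8.49% and 26.0% of all genes. With only the 8-week arrays in the fit 0 were higher and 4 lower. The balance moved with the scaling, as it did over all genes. It was 3 higher and 3 lower with the authors' own scaling, 2 and 4 with quantile normalization and 3 and 5 with centring on the tested probe sets. Rora, a nuclear receptor that activates Arntl through the ROR element, had signals of 842, 886 and 890.2 in ICR and 467, 458 and 536 in ICGN at 8 weeks, with the strains far apart. It was lower in ICGN by -0.65 ± 0.13 on the log2 scale (limma adjusted p = 0.000361), and the strain difference changed with age by -0.94 ± 0.19 (limma adjusted p = 0.00481).

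Hlf, which encodes the remaining PAR bZIP factor, had 1964, 1463 and 2364 in ICR and 1185, 1305 and 1302 in ICGN at 8 weeks, again with no overlap (-0.40 ± 0.15, limma adjusted p = 0.00749). Timeless, named for a fly clock gene and known in mammals for its part at the replication fork, was higher in ICGN with 72.1, 83.8 and 76.0 against 50.3, 62.8 and 40.7 (0.70 ± 0.16, limma adjusted p = 0.0218). Of 9 genes for kinases and ubiquitin ligases that act on clock proteins, 5 were lower and 0 higher, beside 26.0% and 8.49% of all genes. They were Btrc (-0.59), a ligase subunit that marks PER proteins for decay, and Prkaa2 (-0.50), a subunit of the energy sensor AMPK. The others were Fbxl21 (-0.46), Fbxw11 (-0.20) and Csnk1d (-0.17), like Csnk1e a kinase of PER proteins. The calls were on values before subtraction of the median gene, and after it the 95% intervals of Fbxl21, Fbxw11 and Csnk1d reached above 0, to 0.0021, 0.06 and 0.08. Clock itself stood at -0.05 at 4 weeks and -0.04 at 8 weeks and was not called. Npas2 and Rorb lay below the array median on all 12 arrays.

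**Figure D4:**
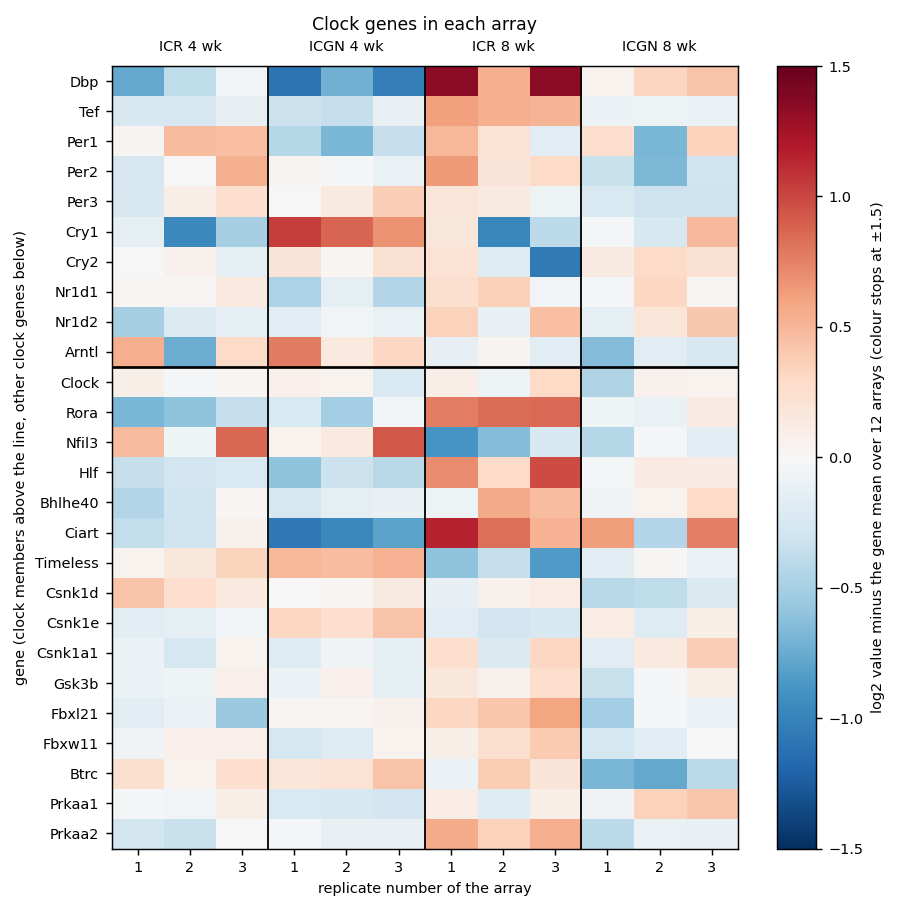
Log2 value minus the gene's mean over the 12 arrays, as colour, for the 10 clock genes above the black line and 16 other clock pathway genes below it, with the 3 arrays of each group side by side. Dbp, Tef, Rora, Hlf and Ciart are red in ICR at 8 weeks, and the columns of a group differ from each other most in Per1, Cry1, Cry2, Arntl, Nfil3 and Ciart.

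The members varied more between arrays of a group than most genes of like brightness. Their median residual SD was 0.29 on the log2 scale against 0.19 for all 12385 genes, which is not matched for brightness. Of the 10, 7 lay above the value that the trend over all genes gives at their brightness. The median ratio of SD to trend was 1.52 for the members and 0.99 for all genes, and 7 of 10 members lay above that all-gene median. The ratio of SD to that trend was 2.00 for Per1 and 1.95 for Dbp, at the 95.8th and 95.3rd percentile of all genes. It was 1.61 for Arntl, 1.59 for Cry1, 1.56 for Cry2, 1.48 for Per2 and 1.34 for Nr1d2. Per3 (0.96) and Nr1d1 (0.88) were near the trend. Tef was among the tightest genes on the array, with a ratio of 0.48 at the 2.20th percentile. These ratios are a description of 12 arrays, with no test, and belong to the brightest probe set of each gene. Other probe sets of a gene differed in spread. In the fit over probe sets, the standard error of the strain difference was 0.21 for the brightest of Dbp and 0.14 for 1418174_at. For Tef it was 0.11 for the brightest, 0.15 for 1450184_s_at and 0.22 for 1438033_at.

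**Figure D5:**
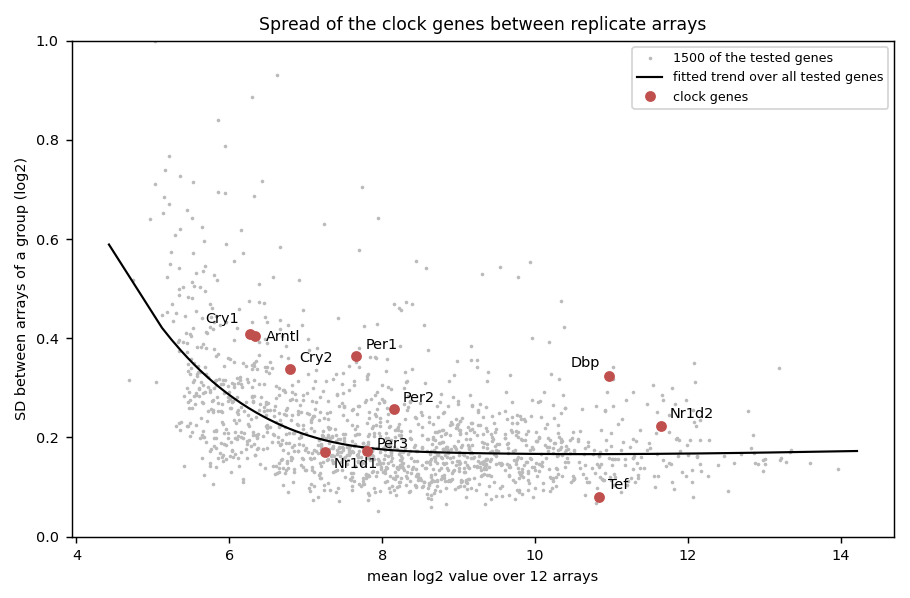
Residual SD between arrays of a group on the log2 scale against mean log2 value over 12 arrays, for the 10 clock genes in red and 1500 of the tested genes in grey, with the trend over all tested genes as a line. Per1, Dbp, Arntl, Cry1, Cry2, Per2 and Nr1d2 lie above the line and Tef lies far below it.

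The arrays that stood low differed from gene to gene. The second ICR array at 8 weeks was the lowest of its group for Dbp, Nr1d2, Per2 and Cry1, and also for Hlf. For Dbp, Nr1d2, Nr1d1, Cry2 and Arntl, and also for Hlf, the first ICGN array at 8 weeks was the lowest of its group. The second ICGN array at 8 weeks was the lowest of its group for Per1, Per2, Per3 and Cry1, and for Ciart, which read 106 there against 234 and 257. The third ICR array at 8 weeks was the lowest of its group for Cry2, Per1, Per3 and Nr1d1, and by a small margin for Tef and Arntl. The second ICR array at 4 weeks was lowest for Arntl and Cry1, and by a small margin for Nr1d1 and Tef. Per1, Per2, Per3, Dbp and Nr1d2 were lowest in the first of the ICR arrays at 4 weeks.

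Within groups some pairs of clock genes went up and down together from array to array. After each group mean was subtracted, Dbp correlated with Nr1d2 at r = 0.90 over the 12 arrays, rank 24 of 12384 genes, and with Hlf at r = 0.83, rank 203. Without the 3 ICR arrays at 8 weeks these were 0.83 and 0.76 over 9 arrays. Per1 and Ciart, a pair chosen after their values were seen, gave 0.92, with 0.91 without those arrays and 0.78 without the 3 ICGN arrays at 8 weeks, which include the array lowest in both. Dbp and Arntl gave -0.22 and Dbp and Tef 0.19. Over all 45 pairs of members r ran from -0.39 to 0.90 with a median of 0.14, and 31 pairs were above 0. The same values over pairs of all genes were not computed, so this median and count are not particular to clock genes. The points share arrays, and no p is given.

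Among all genes, those most like Dbp after group means were subtracted were Prkacb (0.99), Washc5 (0.95), Lamb1 (0.95), Dydc2 (0.95) and Rif1 (0.93). Those least like it were Foxs1 (-0.89), Coro2a (-0.88), Apba3 (-0.87), Vps52 (-0.86) and Oasl1 (-0.86). With the arrays as they stood, which adds the differences between the 4 groups, Hlf ranked second of all genes at r = 0.97, beside Oxsr1 (0.97), Esm1 (0.97), Sh3bp5 (0.97) and Mtss1 (0.96). The lowest were Polm (-0.96), Zbtb22 (-0.94), Tmem106c (-0.93), Tagln (-0.93) and Vps37d (-0.93). Tef reached 0.86, Ciart 0.86, Rora 0.81 and Nr1d2 0.77, while Timeless stood at -0.92 and Arntl at -0.48.

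For Arntl the genes most like it with group means subtracted were Gripap1 (0.94), Apbb1, Mirg, Atp6v0e and Ryk (0.89), and the least like it were Sgsh (-0.92), Cacna1f, Dlg3, Mefv and Adcy1 (-0.86). As the arrays stood they were Tpst2 (0.92), Sult1b1, Ino80c, Tpd52l1 and Arhgap23 (0.86), against Rcor2 (-0.78), Slc30a7, Xylt2, Cnih2 and Lat (-0.75). No other member was among these genes.

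The counts for the next lists are to be read beside the same shares of all genes. Genes known to follow the clock or to move members of it were read beside the members, and what part they have in the members' differences was not tested. Of 13 rhythmic output genes tested, limma called 2 lower and 0 higher in the 4-week ICGN arrays, the transferrin receptor gene Tfrc (-1.53 ± 0.13, limma adjusted p = 2.13e-05) and Alas1 (-0.75), the first enzyme of heme synthesis. At 8 weeks 2 were higher, Pdk4 (0.99) and Tubb2a (0.93), and 4 lower, among them Tfrc (-1.45), Nampt (-0.76), the rate-limiting enzyme of NAD salvage, and Usp2 (-0.35). Of 13 transport and signalling genes of the tubule that are linked to the clock, 1 was higher and 1 lower at 4 weeks. At 8 weeks 1 was higher, Edn1 (1.41), the endothelin gene, and 6 were lower, among them Slc12a3 (-1.01), Wnk4 (-0.92) and Scnn1a (-0.25).

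Of 13 glucocorticoid-responsive genes other than Per1, 1 was higher in ICGN at 4 weeks, the cell cycle inhibitor gene Cdkn1a (1.21). At 8 weeks 2 were higher, Mt2 (1.43) and Cdkn1a (1.23), and 1 lower, Errfi1 (-0.40). Of 15 immediate early genes 3 were higher at 4 weeks and 9 at 8 weeks and 0 lower, with Fos at 3.19 ± 0.32 (limma adjusted p = 1.21e-05) and Egr1 at 2.55 ± 0.24 at 8 weeks. Per1, often induced with them, stood at -0.03 at that age. Of 9 cold- and heat-responsive genes 4 were lower at 4 weeks and 5 at 8 weeks, the heat shock gene Hspa1a at -1.58 and -1.06 among them. Of 9 fasting-responsive genes 1 was higher at 4 weeks, Igfbp1 (2.46), and at 8 weeks 4 were higher and 1 lower.

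Cell markers also moved with the strain at 8 weeks. The 10 macrophage markers summed to between 3163 and 4382 in ICR and between 6728 and 8443 in ICGN, with 9 called higher. At 4 weeks the sums were 2295 to 2945 and 3872 to 4402, with 7 called higher. The 10 proximal tubule markers summed to between 77769 and 92740 in ICR and between 46783 and 58603 in ICGN at 8 weeks, with 7 called lower, against 70671 to 82194 and 58865 to 76020 at 4 weeks with 0 called. The Actb 3' to 5' ratio at 8 weeks lay between 1.70 and 2.10 in ICR and between 1.57 and 1.64 in ICGN. That of Gapdh lay between 0.78 and 0.81 in ICR and between 0.79 and 0.80 in ICGN. The part of these shifts in the lower Tef, Per2 and Dbp was not tested.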

How the data were processed

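Total RNA from renal cortex was hybridised to 12 arrays, per the labels' protocols. The authors deposited MAS5 signals, an intensity for each probe set that is not on a log scale, per the submitters' processing notes and the table itself. In the deposited table the mean trimmed by 2% at each end was 100.0 on every 4-week array and 500.0 on every 8-week array, so each age had its own scale. Because deposited array medians ran from 17.4 to 108, over 0.5 apart in log2, all arrays were multiplied here to the same median. The log2 of signal plus 11.1 was then used, where 11.1 is the 25th percentile of the scaled table, so fold changes of dim genes are understated. A gene was read from its brightest tested probe set, _x_at probe sets being used last. Of 45101 probe sets, 34958 had 1 gene symbol, 932 several and 9211 none, and names come from those with 1.

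R 4.3.3 with limma 3.58.1 fitted 4 group means to 12 arrays, with 8 residual degrees of freedom and a mean-variance trend, and gave the strain difference at each age, their difference and the age change in each strain. Log2 fold changes and intervals are after subtraction of the comparison's median gene. The fit was tested on simulated data. No arrays held identical values. Replicate numbers were not taken to pair the samples. The number of arrays limits the precision. The members, the lists and the rule for named genes were chosen with earlier results of these data known. That rule took all members, up to 6 called genes of each clock list and 4 of each other list, and the 5 genes most and least like Dbp and Arntl. Part of the genes it names is printed. Alternatives were other offsets, scalings, filters, probe set choices, samples in the fit, no variance trend, a replicate block and leaving out each array.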

Additional observations from a re-analysis of the deposited data

Results flagged for a closer look

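The strain difference of Tef was not the same at both ages. It was 0.41 lower on the log2 scale at 8 than at 4 weeks (-0.41 ± 0.15, limma adjusted p = 0.0279), with 1516 ± 140 in ICGN and 1571 ± 84.6 in ICR at 4 weeks and 1706 ± 17.6 and 2665 ± 103 at 8 weeks (mean ± SD, n = 3). This rests on the brightest probe set. In the test over probe sets it was called for that one (-0.44, limma adjusted p = 0.0389) and, in the opposite direction, for 1438033_at (1.40, limma adjusted p = 0.0308). For 1450184_s_at it was -0.42 (limma adjusted p = 0.131).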

How the results depend on the processing

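Of the values recomputed under alternatives other than leaving out an array, 517 stayed on the same side of the threshold in the same direction or moved by little, 12 lost and 10 gained a call, 6 reversed and 5 moved. With single arrays left out these were 329, 20, 8, 0 and 3. The clock members called between the strains at 4 weeks (1 of 10) were 0 with a filter at the 75th percentile, which leaves Cry1 untested, and 2 with only the groups compared. Leaving out an array gave 0 to 1. At 8 weeks (3 of 10) it gave 3 to 5, the highest without the first ICR array. For the interaction (1 of 10) the count was 0 with quantile normalization and with the median of the probe sets, and 0 to 2 with an array left out, the 2 being reached without the third ICR array at 4 weeks. For the age change in ICR (3 of 10) it was 1 with the median of the probe sets and 2 to 4 with an array left out. For the age change in ICGN (3 of 10) it was 1 without a filter, 5 with only the groups compared and 1 to 2 with an array left out. The other clock genes called at 4 weeks (0 of 16) were 1 with quantile normalization, with centring on the tested probe sets and with the authors' scaling (Csnk1e), 1 with the most variable probe set (Fbxw11) and 1 with only the groups compared (Ciart), and 0 in each fit with an array left out. At 8 weeks (8 of 16) they were 4 with only the groups compared and 4 to 9 with an array left out, the lowest without the third ICR array.

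Reversals came from the choice of probe set. With the most variable probe set the Tef log2 fold change, strain difference at 8 weeks, was 1.08, the Tef log2 fold change, strain by age interaction, 1.39, and the Per3 log2 fold change, age change in ICGN, 0.22. With the median of the probe sets the Per3 log2 fold change, age change in ICGN, was 0.22, the Tef log2 fold change, age change in ICR, -0.29 and the Tef log2 fold change, age change in ICGN, -0.34. The replicate block changed no count of clock genes called by over 1.5 times. Over all genes it called 1068 higher and 3460 lower at 8 weeks, against 1052 and 3225 without it. For the interaction it called 320 and 1001, against 274 and 704, and at 4 weeks 196 and 197, against 198 and 172. With the pairing by number as a block 1 of 10 members was called at 4 weeks, 3 at 8 weeks, 1 for the interaction, 3 for the age change in ICR and 4 for that in ICGN, where Cry1 was added. Arrays of the same number correlated at -0.09 to 0.10 in their deviations, and the numbers were not taken as pairs. These values cannot settle whether arrays of a number belong together, since each group has only 3 arrays. Signal limits the dimmest members, since Cry1 lay above the array median on 10 and Arntl on 11 of 12 arrays, with lowest signals of 27.9 and 37.3.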
